A study of Homo sapiens with 6 samples.

Results

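Condensins are the ring-shaped protein complexes that compact chromosomes for mitosis, and this account follows the RNAs of their 8 subunit genes in KOPTK1 cells. KOPTK1 is an established line from a human acute lymphoblastic leukaemia of the T lineage (T-ALL). The genes are SMC2, SMC4, NCAPD2, NCAPD3, NCAPG, NCAPG2, NCAPH and NCAPH2. Their measurements are all 16 probe sets, of 54675 on the array, whose annotation names a single one of these symbols. The cells had been kept for 48 h with PD0332991 at 1 µM (3 arrays) or with vehicle (3 arrays), the comparison that the study was designed for. PD0332991, also called palbociclib, inhibits the cyclin D-dependent kinases CDK4 and CDK6, which phosphorylate the retinoblastoma protein and so let cells enter S phase. The submitters describe the replicates of each treatment as biological triplicates of this single line, which limits the result to it.

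All condensin complexes share a pair of ATPases, SMC2 and SMC4, whose long coiled coils form the arms of the ring. Condensin I adds the kleisin NCAPH, which closes the ring, and the HEAT-repeat subunits NCAPD2 and NCAPG. Condensin II adds their paralogues NCAPH2, NCAPD3 and NCAPG2. Condensin II is nuclear through interphase and starts compaction in prophase, whereas condensin I reaches the chromosomes after the nuclear envelope breaks down. Many genes of the G2 and M phases are repressed in resting cells by the DREAM and retinoblastoma protein complexes, through promoter elements that include the cell cycle homology region (CHR), and many genes of the G1/S transition through E2F sites.

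The promoters of these genes are shown because the 8 RNAs moved together. RefSeq promoter windows of GRCh38.p14, 250 bases before to 50 bases after a transcript start, were at hand for 7 of the 8 genes, with 10 windows in all. No window was at hand for NCAPH2. On both strands the CHR letters TTTGAA, the CHR variant TTCGAA, the E2F letters TTTCCCGC, TTTGGCGC, TTTCGCGC and TTTGCCGC, and the CCAAT box letters CCAAT were searched. None of these motifs contains another, and no matches overlapped in the windows printed. Capitals mark the matches, and a match on the opposite strand appears as its reverse complement. On the brightest probe set of each gene, NCAPH had the largest decrease of the 8 and NCAPD3 the smallest. The windows printed are those of NCAPH, of the paralogues NCAPG and NCAPG2, and of NCAPD3. For NCAPD3 the second of its windows is printed, since the first holds 0 matches.
NCAPH, condensin I kleisin, chr2:96335516-96335815, plus strand: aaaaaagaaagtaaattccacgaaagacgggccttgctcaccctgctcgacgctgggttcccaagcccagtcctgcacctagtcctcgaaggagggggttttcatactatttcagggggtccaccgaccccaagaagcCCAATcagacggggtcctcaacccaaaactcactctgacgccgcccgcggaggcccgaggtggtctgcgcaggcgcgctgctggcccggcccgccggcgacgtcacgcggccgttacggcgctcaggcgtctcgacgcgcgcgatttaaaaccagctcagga
NCAPG, condensin I HEAT-repeat subunit, chr4:17810729-17811028, plus strand: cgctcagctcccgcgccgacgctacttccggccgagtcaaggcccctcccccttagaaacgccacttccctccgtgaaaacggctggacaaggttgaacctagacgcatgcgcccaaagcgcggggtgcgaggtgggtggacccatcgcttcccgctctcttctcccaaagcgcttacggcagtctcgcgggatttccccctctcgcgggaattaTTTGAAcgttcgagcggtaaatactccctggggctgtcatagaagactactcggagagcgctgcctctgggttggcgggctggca
NCAPG2, condensin II HEAT-repeat subunit, chr7:158704755-158705054, minus strand: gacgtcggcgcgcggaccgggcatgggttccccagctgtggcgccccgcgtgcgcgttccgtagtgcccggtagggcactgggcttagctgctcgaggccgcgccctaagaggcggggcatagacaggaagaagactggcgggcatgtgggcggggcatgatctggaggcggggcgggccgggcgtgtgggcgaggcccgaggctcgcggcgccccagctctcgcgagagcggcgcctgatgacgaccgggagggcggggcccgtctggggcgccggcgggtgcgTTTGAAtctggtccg
NCAPD3, condensin II HEAT-repeat subunit, chr11:134223918-134224217, minus strand: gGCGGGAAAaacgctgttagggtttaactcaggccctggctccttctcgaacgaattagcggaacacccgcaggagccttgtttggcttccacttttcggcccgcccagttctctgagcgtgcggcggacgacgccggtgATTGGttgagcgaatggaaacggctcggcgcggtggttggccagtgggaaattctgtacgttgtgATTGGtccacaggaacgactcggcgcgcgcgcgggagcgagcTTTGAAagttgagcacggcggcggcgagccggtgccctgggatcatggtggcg

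The letters TTTGAA were found in at least 1 window of 6 of the 7 genes, NCAPD2, NCAPG, NCAPD3, NCAPG2, SMC2 and SMC4, and not in that of NCAPH. Among all 27305 genes with such windows, 18.2% hold these letters in at least 1 window, and 15.2% of all 35116 windows do. In NCAPG the match begins 35 bases before the start, and in NCAPD3 it begins 3 bases before it. In NCAPG2 it lies after the start, at position 36. The CCAAT letters were in windows of 3 of the 7 genes (NCAPD2, NCAPH and NCAPD3), against 39.7% of all genes. An E2F match was in a window of 1 of the 7, NCAPD3, where 3.99% of all genes have one, and TTCGAA was in 0 of the 7 (1.82% of all genes). These matches describe letters in short windows and say nothing of which factor bound there.

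Values are the deposited probe set intensities, on a linear scale, and fold changes were taken on log2(intensity + 16) as PD0332991 minus vehicle. The 54613 probe sets that are not controls were named with the platform annotation, and the probe set with the highest mean over the 6 arrays stood for each of 19775 genes. Median array intensities lay between 49.1 and 54.3, and no scan date or batch is given in the sources used here. Pearson correlations over genes, which are not independent replicates, were 0.993 to 0.996 between arrays of 1 group and 0.976 to 0.979 between the groups. The T-cell identity of the line was checked with 10 marker genes, of which 10 lay above the median of all genes. Their summed intensity was 29445 to 30708 with PD0332991 and 23282 to 25627 with vehicle. Of 11 measured markers of B cells, myeloid, erythroid and epithelial cells and fibroblasts, 3 lay above that median, with sums of 960.2 to 1193 with PD0332991 and 776 to 862 with vehicle. Of these 11, CD79A was higher, at 486 to 641 with PD0332991 and 250 to 305 with vehicle, MPO was lower and the other 9 did not pass in limma. Both sums were higher with PD0332991, and their part in the results below was not tested.

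All 8 condensin genes fell after PD0332991, between 2.44-fold for NCAPD3 and 14.1-fold for NCAPH on the log2(intensity + 16) scale. The test was limma across all genes with Benjamini-Hochberg adjustment and a threshold of 0.05, and 0 of the 8 rose, also at an unadjusted p under 0.05. In that test 13.6% of all genes were lower and 15.6% higher. For each of the 8 genes all PD0332991 arrays lay below all vehicle arrays, which held for 20.0% of all genes. The median log2 fold change of the 8 was −2.14, beside 0.01 for all genes. NCAPH, NCAPG, NCAPG2 and SMC2 fell at least 4-fold, as 0.748% of all genes did. In bulk RNA, fewer cells carrying a transcript and less of it in each cell cannot be told apart. On arrays that appear to share a scale, an intensity is relative to the rest of its array and not an amount per cell.

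**Figure D1:**
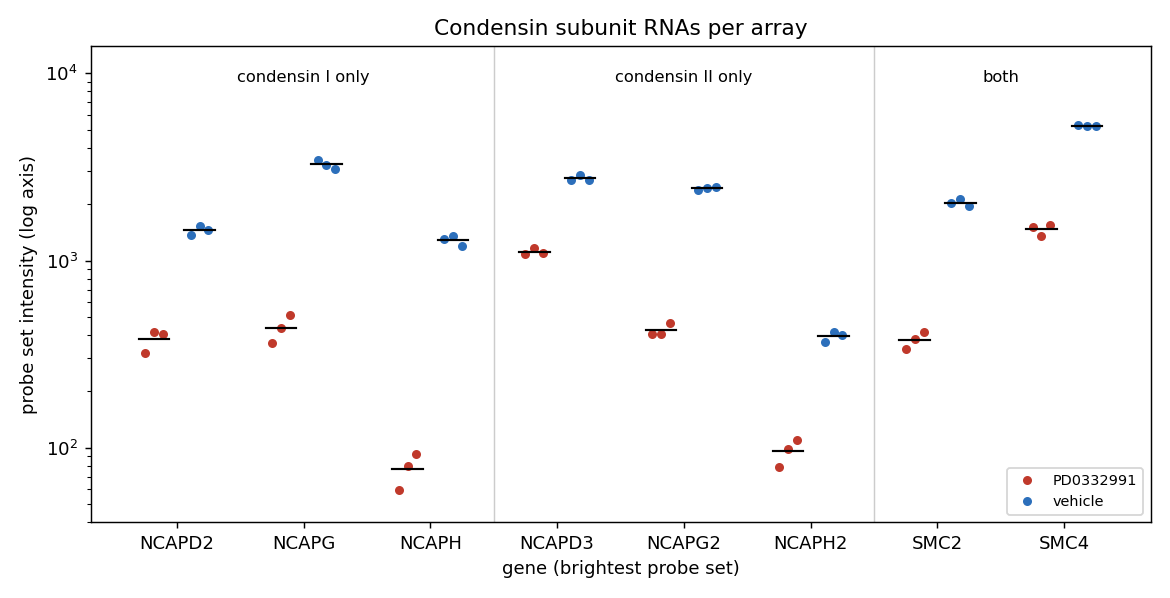
Intensity of the brightest probe set of each condensin gene on a log axis, with a point per array (replicates 1 to 3 from left to right), bars at the group means (n = 3), PD0332991 left of vehicle. In all 8 genes the PD0332991 points lie below the vehicle points, with the widest gap in NCAPH (59.1 to 92.2 against 1195 to 1360) and the narrowest in NCAPD3 (1082 to 1167 against 2681 to 2852).

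Both ATPase genes of the ring fell. SMC2 had intensities of 336, 380 and 416 on the PD0332991 arrays, against 2029, 2120 and 1947 on the vehicle arrays. The groups lay far apart, at 378 ± 39.8 with PD0332991 and 2032 ± 86.3 with vehicle (SD, n = 3 each). The log2 fold change was −2.38 (SE 0.09, limma adjusted p = 2.84e-05), and the mean intensity with PD0332991 was 18.6% of that with vehicle. SMC4, its partner at the hinge, had 1511, 1356 and 1546 with PD0332991, against 5266, 5224 and 5216 with vehicle. The SMC4 vehicle arrays were nearly equal, with an SD of 27.1, and the PD0332991 arrays were all far below them. Its log2 fold change was −1.82 (SE 0.07, limma adjusted p = 2.84e-05), with 28.1% of the vehicle mean left.

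In condensin I, the kleisin fell most and the HEAT-repeat subunit D2 least. NCAPH had 59.1, 80.2 and 92.2 with PD0332991, against 1304, 1360 and 1195 with vehicle. The mean with PD0332991 was 6.00% of the mean with vehicle (77.2 ± 16.8 and 1286 ± 83.8, SD, n = 3 each). Its change of −3.82 on the log2 scale (SE 0.14, limma adjusted p = 2.84e-05) ranked 2 among the decreases of the 19775 genes. Its size depends on the pseudocount, with −4.06 at a pseudocount of 1 and −3.26 at 64, since its PD0332991 values are low. NCAPG, a HEAT-repeat subunit that binds DNA together with the kleisin, had 365, 435 and 511 with PD0332991, against 3455, 3255 and 3093 with vehicle. All PD0332991 values of NCAPG were thus far under the lowest vehicle value, at 13.4% of the vehicle mean. Its log2 fold change was −2.87 (SE 0.13, limma adjusted p = 4.65e-05), rank 64 among the decreases. NCAPD2, the other HEAT-repeat subunit, had 321, 415 and 406 with PD0332991, against 1376, 1538 and 1458 with vehicle. Its change of −1.90 on the log2 scale (SE 0.11, limma adjusted p = 1.19e-04) ranked 167, with 26.1% of the vehicle mean left.

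In condensin II, NCAPG2 fell most and NCAPD3 least on the brightest probe sets. NCAPG2 had 404, 405 and 465 with PD0332991, against 2386, 2441 and 2455 with vehicle. Its mean was 17.5% of that with vehicle, and its change on the log2 scale was −2.47 (SE 0.07, limma adjusted p = 2.35e-05), rank 103. NCAPD3, the subunit D3, had 1082, 1167 and 1095 with PD0332991, against 2681, 2852 and 2698 with vehicle. Of the 8 genes, each on its brightest probe set, it kept the largest share of its vehicle mean, 40.6%. Its log2 fold change was −1.29 (SE 0.06, limma adjusted p = 5.61e-05), rank 324, and 1.64% of all genes had a change at least as far down. NCAPH2, the condensin II kleisin, had 79.0, 98.5 and 110 with PD0332991, against 367, 416 and 399 with vehicle. The groups did not overlap, at 24.3% of the vehicle mean, and the change on the log2 scale was −1.88 (SE 0.12, limma adjusted p = 1.48e-04). Its probe set has the suffix _s_at, for probes that may match several transcripts. The probe sets used for NCAPD2, NCAPG, NCAPG2 and SMC2 carry that suffix too. The change of NCAPH2 was −0.19 (limma adjusted p = 0.449), and not called, when every _x_at and _s_at probe set was dropped, and −0.78 (adjusted p = 0.00198) as the mean of its 5 probe sets.

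Ordered by the log2 fold change of the brightest probe set of each gene, the genes ran NCAPH, NCAPG, NCAPG2, SMC2, NCAPD2, NCAPH2, SMC4 and NCAPD3. The 95% interval of NCAPH, −4.17 to −3.47, did not meet that of NCAPG, −3.18 to −2.56. NCAPG2 (−2.65 to −2.30) and SMC2 (−2.60 to −2.17) had overlapping intervals, and both overlapped that of NCAPG. The intervals of NCAPD2 (−2.17 to −1.63), NCAPH2 (−2.17 to −1.60) and SMC4 (−1.99 to −1.66) covered nearly the same range. The interval of NCAPD3, −1.43 to −1.14, lay above all the others. The order depends on the probe sets, since NCAPH2 was at −0.78 as the mean of its 5 probe sets. For SMC4, the other probe sets 201663_s_at and 215623_x_at were at −2.33 and −1.05. These are sizes of change, and the intensities of different probe sets do not rank the genes by RNA amount. Whether intervals meet is no test of a difference between genes, which share their 6 arrays.

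On the brightest probe sets, each condensin I subunit had a larger decrease than its condensin II paralogue on all 3 PD0332991 arrays. The test of this is one that 3 against 3 arrays cannot pass. The comparison was made per array as the log2 value of the condensin I gene minus that of its paralogue, so that the array's own scaling cancels. For the kleisins, NCAPH minus NCAPH2 was −0.27 ± 0.06 with PD0332991 and 1.67 ± 0.12 with vehicle (SD, n = 3 each). The gap of −1.94 (SE 0.08) is a 3.83-fold larger decrease of NCAPH on this scale. For the D subunits, NCAPD2 minus NCAPD3 was −1.52 ± 0.16 with PD0332991 and −0.91 ± 0.04 with vehicle (SD, n = 3 each), a gap of −0.61 (SE 0.10) or 1.53-fold. For the G subunits, NCAPG minus NCAPG2 was 0.03 ± 0.15 with PD0332991 and 0.43 ± 0.10 with vehicle (SD, n = 3 each), a gap of −0.40 (SE 0.10) or 1.32-fold, the smallest of the 3. In every pair the 3 PD0332991 arrays lay below the 3 vehicle arrays. Each gene is read by 1 probe set here, and subtraction within an array does not cancel differences between probe sets. Probe sets of 1 gene also differed, at −1.82, −2.33 and −1.05 for SMC4, −2.87 and −3.15 for NCAPG and, less so, −2.38 and −2.28 for SMC2. Those of NCAPH2, in the kleisin pair, differed most, at −1.88, −0.97, −0.45, −0.39 and −0.19. The spread between probe sets was wider than the D and G gaps for SMC4 and NCAPH2, and narrower for NCAPG and SMC2. The D and G gaps were not tested against such spreads. The two-sided exact permutation p was 0.1 for each of the 3 pairs and 0.1 after Benjamini-Hochberg adjustment, which is the smallest that 3 against 3 arrays allow, so no pair could pass 0.05.

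Averaged over its 3 own subunits and set to 0 at the vehicle mean, condensin I stood at −3.12, −2.80 and −2.68 on the PD0332991 arrays. Condensin II stood at −1.99, −1.87 and −1.78 on the same arrays, and the SMC pair lay between both, at −2.10 ± 0.09 (SD, n = 3). The difference, condensin I minus condensin II, was −0.98 ± 0.12 with PD0332991 and 0 ± 0.06 with vehicle (SD over arrays, n = 3 each). It is given as a description with no test. The kleisin gap of −1.94 has the largest part in it, beside −0.61 and −0.40 for the D and G subunits. The single subunits did not all separate by complex, since NCAPG2 of condensin II (−2.47) fell further than NCAPD2 of condensin I (−1.90). Over the kleisin pair the size depends on which NCAPH2 probe sets are used: the gap was −3.04 with the mean of all probe sets and −3.63 when every _x_at and _s_at probe set was dropped, and the difference of the complex means was −1.40 with the mean of probe sets.

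**Figure D2:**
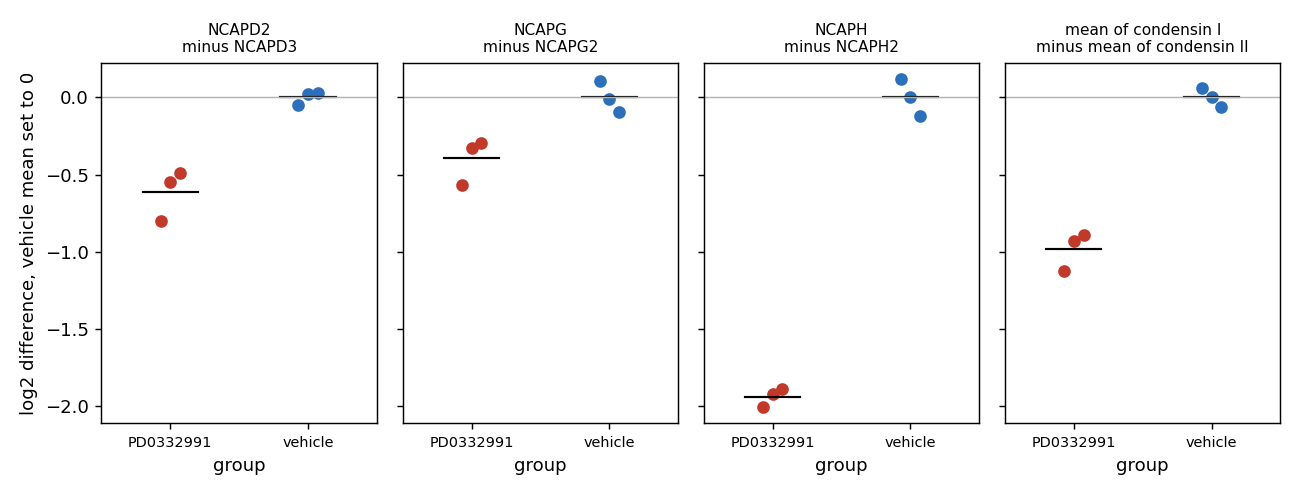
Log2 difference between each condensin I gene and its condensin II paralogue, and between the means of both sets of 3 genes, per array with the vehicle mean set to 0, PD0332991 left of vehicle, with bars at the group means (n = 3). All PD0332991 points lie below the vehicle points, near −1.94 for the kleisins, −0.61 for the D subunits and −0.40 for the G subunits.

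Of the 16 probe sets of these genes, 13 fell, 0 rose and 3 did not pass in limma over all 54613 probe sets, of which 10.2% were lower. At an unadjusted p under 0.05, 0 of the 16 rose. All PD0332991 arrays lay below all vehicle arrays for the same number, 13, as for 17.6% of all probe sets. The 3 that did not pass all belong to NCAPH2, which alone has 5 probe sets. The probe set 227076_at of NCAPH2 had 27.0, 33.2 and 34.1 with PD0332991, against 75.9, 70.0 and 85.2 with vehicle, which gives −0.97 on the log2 scale (limma adjusted p = 0.00111). This one fell too, at intensities near the pseudocount, which makes a change look smaller. On the other NCAPH2 probe sets the groups overlapped. The probe set 221633_at had 76.1, 53.0 and 49.97 with PD0332991, against 59.6, 74.0 and 74.6 with vehicle, at a log2 fold change of −0.19 (limma adjusted p = 0.472). The probe set 40640_at was at −0.45 (limma adjusted p = 0.207) and 209718_at at −0.39 (limma adjusted p = 0.472), with mean intensities of 32.3 and 17.7 with PD0332991, against 50.1 and 27.1 with vehicle. The deposited values carry no detection calls, so how much of such intensities is background is not known. This holds for 227076_at and for the PD0332991 values of NCAPH as well. It also holds for the PD0332991 values of 205086_s_at, the NCAPH2 probe set in the kleisin pair. The part of background in the size of the kleisin gap was not tested.

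For SMC4, 3 probe sets fell by unequal amounts. The brightest, 201664_at, was at −1.82, and 201663_s_at had 549, 571 and 598 with PD0332991, against 2858, 3002 and 2961 with vehicle, a log2 fold change of −2.33 (SE 0.07). The dimmest, 215623_x_at, whose suffix marks probes that may match other transcripts, had 237, 217 and 206 with PD0332991, against 505, 536 and 391 with vehicle. Its groups did not overlap, and its change of −1.05 on the log2 scale (SE 0.13, limma adjusted p = 0.00249) was the smallest of the 3. The pair of SMC2 probe sets lay close together, with 213253_at at −2.28 (SE 0.08) beside −2.38 for 204240_s_at. For NCAPG, 218663_at had 215, 238 and 297 with PD0332991, against 2482, 2375 and 2149 with vehicle. At −3.15 (SE 0.13) it fell a little further than 218662_s_at, at −2.87. NCAPD2, NCAPH, NCAPD3 and NCAPG2 had 1 probe set each, so no other probe set checks their values.

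**Figure D3:**
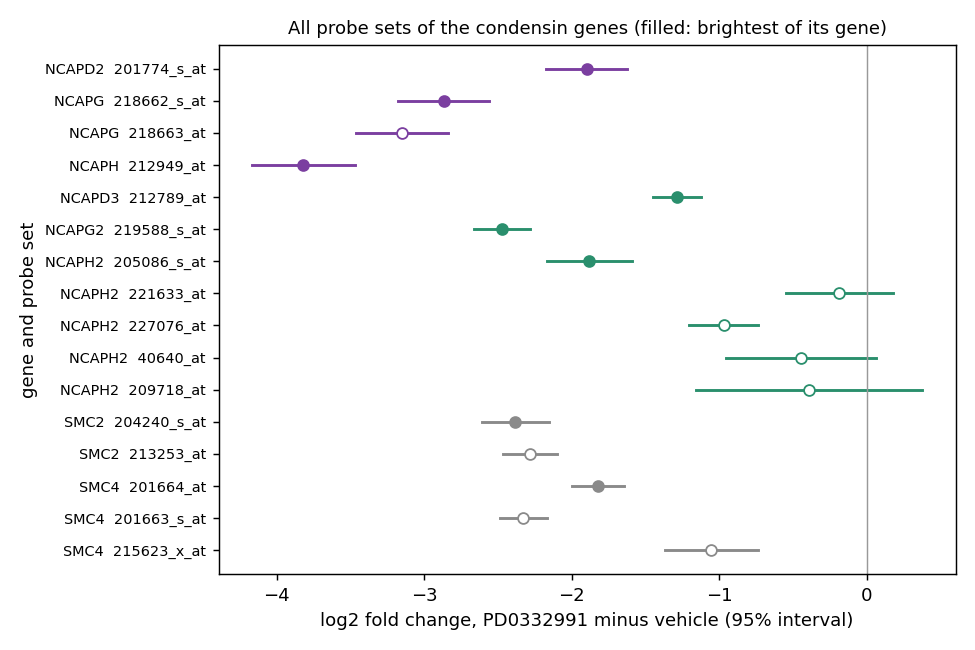
Log2 fold change of all 16 probe sets, PD0332991 minus vehicle, with its 95% interval from limma, in purple for condensin I genes, green for condensin II genes and grey for SMC2 and SMC4, filled where the probe set is the brightest of its gene. The intervals of 13 lie below 0, and the 3 that reach 0 are probe sets of NCAPH2.

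The PD0332991 arrays differed among themselves in the same way for most of the genes. Replicate 1 had the lowest intensity of its group in 7 of the 8 genes, with SMC4 the exception, and replicate 3 had the highest in 6 of the 8. The 144 other genes that fell at least 4-fold had replicate 1 lowest in 88.9% and replicate 3 highest in 83.3%. Without PD0332991 replicate 1 all 8 genes were still lower, and NCAPH was at −3.67. Among the vehicle arrays, replicates 1 and 3 were each lowest in 4 genes and replicate 2 highest in 5. Replicate 2 with vehicle was highest in 62.5% of the 8 genes and in 19.4% of the 144 others, and replicate 1 in 25.0% and 49.3%, so the vehicle arrays did not show the same order in both sets.

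Among genes that act with condensin, most of the mitotic kinases had large decreases. The list of partners and regulators had 24 genes, 22 of which were analysed here, and 16 fell, 0 rose and 6 did not pass in limma, where 0 rose at an unadjusted p under 0.05 as well. Over all genes 13.6% were lower and 15.6% higher. Its median log2 fold change was −0.48, beside −2.14 for the condensin genes and 0.01 for all genes. All 7 genes of the mitotic kinases and cyclin B1 (CDK1, CCNB1, AURKA, AURKB, PLK1, TTK and BUB1) fell, with a median of −2.76. The smallest decrease was in PLK1, at −0.46, on a dim probe set. It had 64.2, 68.4 and 68.9 with PD0332991, against 101, 109 and 85.5 with vehicle. How much of these PLK1 intensities is background is not known, so the size of its decrease is uncertain. CDK1, the kinase that phosphorylates condensin at mitotic entry, averaged 672 ± 83.3 with PD0332991 and 5097 ± 193 with vehicle (SD, n = 3 each), at −2.90. AURKB, the kinase of the chromosomal passenger complex, which promotes condensin I loading, was at −3.42. KIF4A, a chromokinesin that binds condensin I, was at −2.87, with 165 ± 13.5 with PD0332991 and 1306 ± 69.7 with vehicle (SD, n = 3 each). MKI67, the coat protein of mitotic chromosomes, was at −3.56. Of the 4 measured genes listed as negative regulators, SET and the casein kinase 2 subunits CSNK2A1, CSNK2A2 and CSNK2B, 3 fell and 1 did not pass, between −0.50 and 0.13. Of 3 phosphatase genes (PPP2CA, PPP2R1A and PPP1CC) 2 fell and 1 did not pass, between −0.42 and −0.13. Of the 5 measured genes of recruitment or binding 2 fell and 3 did not pass, among them RB1, whose protein binds condensin II, at −0.20 (limma adjusted p = 0.0506). Of the topoisomerase II genes, which act on the same chromosome axis, TOP2A fell to 1114 ± 120 with PD0332991, against 8055 ± 272 with vehicle (SD, n = 3 each), at −2.84. TOP2B had 5552 ± 212 with PD0332991 and 5521 ± 179 with vehicle (SD, n = 3 each), at 0.01 (SE 0.06, limma adjusted p = 0.945). PLK1, RB1, TOP2A and TOP2B are named here after their values were seen.

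On the brightest probe sets the other SMC complexes of the cell had smaller decreases. Of 12 genes of cohesin, its loader and the SMC5/6 complex, 9 fell, 0 rose and 3 did not pass in limma, and 0 had an unadjusted p under 0.05 on the higher side. Their median was −0.55, and 13.6% of all genes were lower. SMC3 and SMC1A, the cohesin ATPases, were at −0.85 (95% interval −0.99 to −0.72) and −0.82 (−0.95 to −0.68), beside −2.38 and −1.82 for the condensin ATPases SMC2 and SMC4. SMC6 and SMC5, which form the ring that acts in DNA repair, were at −0.94 (−1.11 to −0.78) and −0.60 (−0.78 to −0.42). The members that did not pass were NIPBL, the cohesin loader, at −0.12, and the SMC5/6 subunits NSMCE1 at −0.26 and NSMCE3 at 0.10. On the brightest probe sets the intervals of the cohesin and SMC5/6 ATPases all lay above those of SMC2 and SMC4. The upper bounds of the latter were −2.17 and −1.66. The same held against 201663_s_at of SMC4 (−2.49 to −2.17) and 213253_at of SMC2 (−2.47 to −2.10). The interval of 215623_x_at, the dimmest SMC4 probe set, was −1.37 to −0.74 and overlapped those of SMC6, SMC3, SMC1A and SMC5. Other probe sets of the cohesin and SMC5/6 genes are not given here.

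**Figure D4:**
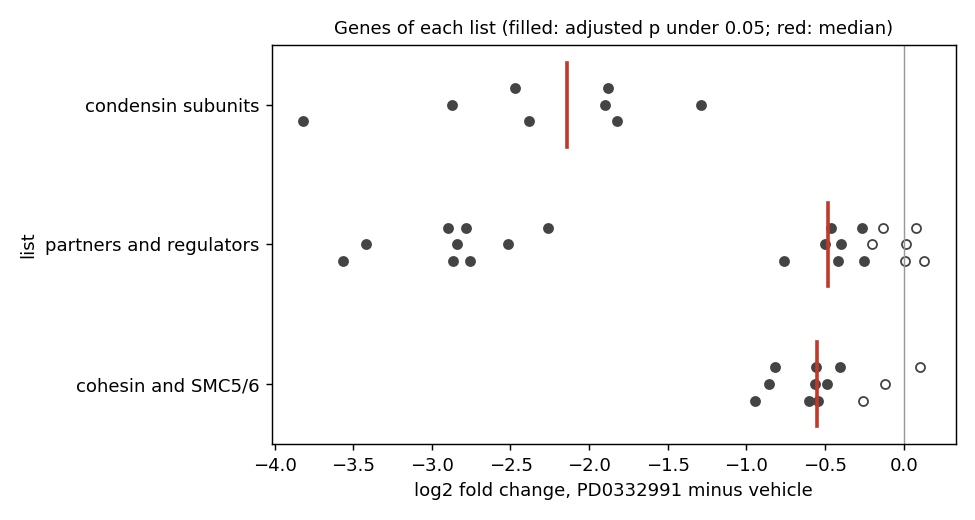
Log2 fold change, PD0332991 minus vehicle, of each measured gene among the condensin subunits (8), their partners and regulators (22) and cohesin with the SMC5/6 complex (12), filled where limma's adjusted p was under 0.05, with the median in red. The medians are −2.14, −0.48 and −0.55, and the partners range from −3.56 to 0.13.

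Genes with the most similar course over the 6 arrays were found by the root mean square difference of their log2 values after subtracting the vehicle mean, among 10213 brighter genes. With 2 treatments, this likeness reflects mainly an equal size of change. Nearest to NCAPH were KIFC1, KIF2C, HJURP, PRC1 and MKI67, at 0.09 to 0.19, with log2 fold changes between −4.03 and −3.56. KIFC1 and KIF2C are mitotic kinesins, HJURP loads the centromeric histone and PRC1 bundles midzone microtubules. Nearest to SMC2 were STIL, ATAD2, PCLAF, MND1 and GJC1, at 0.03 to 0.07, with changes between −2.43 and −2.37. STIL acts in centriole duplication and PCLAF binds the replication clamp PCNA. Nearest to NCAPD3, the least changed subunit on the brightest probe sets, were SUN2, LRR1, RHNO1, SLBP and MIS18A. They lay at 0.03 to 0.06, with changes between −1.29 and −1.23. SUN2 is a protein of the inner nuclear membrane and SLBP binds the stem-loop of histone mRNAs.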

How the data were processed

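Total RNA of 6 KOPTK1 cultures was biotin-labelled and hybridised to 1-colour Affymetrix arrays, per the labels' protocols. The deposited intensity values, 54675 per array, were on a linear scale (0.56 to 16362) and appeared to share a common scale. The sources used here do not give the summarisation or scaling method. Trimmed means (2% at each end) were 282 to 294, so no further normalization was applied. Of all values 25.5% lay below the pseudocount of 16, and precision is limited by having 6 arrays.

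The 62 control probe sets were left out. A single gene symbol was given for 41091 probe sets and several for 1801, while 11721 stayed unnamed. RefSeq of GRCh38.p14 gave current symbols for these gene IDs (54 found no match). Genes and probe sets were fitted separately with limma 3.58.1 in R 4.3.3 (lmFit, eBayes, two-sided, 4 residual degrees of freedom), and the code was tested on simulated data. Each gene was represented by its brightest probe set. The rule for named genes took all members, the 4 largest changes per list, the members against its direction or not passing where few, and the 5 nearest patterns of NCAPH, SMC2 and NCAPD3. Members and lists were chosen with earlier results of these data known. Some genes of the partner list are not reported here. Replicate numbers were not taken as pairs. Deviations of same-numbered arrays from their group means correlated across genes at 0.01, 0.07 and 0.08. Those of differently numbered arrays correlated at −0.08 to 0.02, so the values of replicates 2 and 3 were the highest. Alternatives were the replicate block, each array left out, quantile, median and 75th percentile scaling, pseudocounts of 1 and 64, brighter genes, trend, robust and array weights, the mean of probe sets and leaving out _x_at and _s_at. Figures used matplotlib 3.10.9.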

Additional observations from a re-analysis of the deposited data

How the results depend on the processing

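Over 18 alternatives, 141 of 142 values of the 8 condensin genes were lower and called, as in the report, the exception being NCAPH2 once every _x_at and _s_at probe set was dropped, at −0.19. That setting left 6 of the 8 genes, of which 5 were lower, because NCAPD2 and NCAPG2 have no other probe set. With 1 array left out, all 8 genes were lower each time (8 to 8), as were 13 probe sets of 16 (13 to 13), and NCAPH ran from −3.94 to −3.67. NCAPH was at −3.26 with a pseudocount of 64. The gap between complex means, −0.98, was −1.40 with the mean of probe sets and ran from −1.03 to −0.91 with 1 array left out. The paralogue gaps kept their sign in every alternative that gave one, between −3.63 and −1.74 for the kleisins, −0.67 and −0.52 for the D subunits and −0.54 and −0.31 for the G subunits. With the replicate number as a block, 8 of 8 genes and 13 of 16 probe sets were lower, and the exact p of each paralogue pair was 0.25, the smallest that 3 pairs allow; the block changed no call of a condensin gene or probe set. The counts of partners that were lower ran from 13 to 18 and of other SMC genes from 8 to 11, with 0 higher throughout. Over all genes, 2046 to 3076 were lower and 2168 to 3656 higher. The unequal changes of its probe sets limit what can be read of NCAPH2.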
